A study of Mus musculus with 10 samples.

Results

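Complement was followed in the unchallenged mouse lung through 9 genes: C1qa, C1qb, C1qc, C4b and C2 of the classical arm, Masp1 of the lectin arm, and C3, Cfb and Cfp of the central and alternative part of the cascade. They were chosen by symbol, through the Ensembl gene identifiers of the deposited count table and the GENCODE M21 annotation, and are 9 of the 47333 genes in that table. All 9 passed the filter on low counts, which left 18024 genes for testing. The source was right middle lobe RNA of 10 naïve C57BL/6J mice aged 12 weeks, which received no treatment and were kept in cages that held both genotypes. The 5 KO mice, with loss of Bpifb1, were 1 male (KO 1) and 4 females, and the 5 WT mice were 2 males (WT 2 and WT 3) and 3 females. The design text names a single question, the effect of losing Bpifb1 on expression, and how the allele was made is not given in the sources used here. Each sample carries its own sex and age label and is read as 1 mouse, although the labels do not say so, so p-values measure the spread between these samples.

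Each library held 21357452 to 28321361 estimated counts. Bpifb1, the gene of a secreted airway protein, had a mean of 0.614 ± 0.462 CPM over the 5 KO mice and of 59.7 ± 23.6 CPM over the 5 WT mice (SD), where CPM is a gene's counts per 1e+06 counts of its library. Its values ran from 0.217 to 1.26 CPM in KO and from 28.1 to 79.6 CPM in WT mice, so every library followed its genotype label. The log2 difference of Bpifb1 was -6.55 (edgeR adjusted p 0.0275), and -6.97 (adjusted p 0.087) without KO 5, described next. One library did not follow its sex label in Xist: KO 5, labelled female, held 1.78 CPM. The other 6 females held 274 to 407 CPM of Xist and the 3 males 1.29 to 1.73 CPM. In 4 Y-linked genes KO 5 held 0 counts, like the other females at 1 to 4 counts and unlike the males at 2470 to 3441 counts. Without KO 5 the 9 complement genes kept the direction of their differences between genotypes, which then ran from -0.14 to 0.27 on the log2 scale. In that fit 0 of 9 passed the test, where 2 of all 18094 tested genes did. In whole lobe RNA, fewer cells of a type and less RNA per cell cannot be told apart.

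Complement is a cascade of plasma and tissue proteins that marks microbes and damaged cells for uptake and lysis. C1q binds antibody and other surfaces and starts the classical arm through C4 and C2, mannose-binding lectins and ficolins start the lectin arm through MASP proteases, and both arms build an enzyme that splits C3. The alternative arm amplifies C3 splitting through factor B, factor D and properdin. Most plasma complement is made in the liver, while C1q is made largely by macrophages, and epithelial and mesenchymal cells of the lung can make C3 and factor B.

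The 3 C1q genes lie side by side on the minus strand of chromosome 4 (GRCm38), in 18675 bases: C1qb at 136880129 to 136886187, C1qc at 136889804 to 136893065 and C1qa at 136895917 to 136898803. The same mouse was highest, and the same mouse lowest, for all 3, and C3 had the highest level of the 9 genes, so sequence upstream of the transcription start is shown for C1qb, C1qc and C3, as RefSeq gives it for GRCm38.p6. RefSeq promoter sequences were matched for 4 of the 9 genes: C3, C1qb, C1qc and Cfp. All 3 sequences are read 5′ to 3′ on the minus strand, from chr4:136886201-136886450 for C1qb, chr4:136893066-136893164 for C1qc and chr17:57228137-57228386 for C3, and run up to the RefSeq start for C1qb and C3. For C1qc the 151 bases nearest the RefSeq start lie inside the GENCODE gene and were left out, so the 99 bases shown are those farthest upstream. Capitals mark matches to GAGGAA, a core bound by the myeloid factor PU.1, or to TTNNGNAA, a core bound by C/EBP factors.
C1qb: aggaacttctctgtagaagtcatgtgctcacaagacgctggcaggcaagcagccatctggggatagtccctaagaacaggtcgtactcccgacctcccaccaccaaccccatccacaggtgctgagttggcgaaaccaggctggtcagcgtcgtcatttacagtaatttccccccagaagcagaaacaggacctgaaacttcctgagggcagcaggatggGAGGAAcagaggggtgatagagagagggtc
C1qc: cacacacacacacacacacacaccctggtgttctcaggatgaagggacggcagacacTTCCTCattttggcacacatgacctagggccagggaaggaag
C3: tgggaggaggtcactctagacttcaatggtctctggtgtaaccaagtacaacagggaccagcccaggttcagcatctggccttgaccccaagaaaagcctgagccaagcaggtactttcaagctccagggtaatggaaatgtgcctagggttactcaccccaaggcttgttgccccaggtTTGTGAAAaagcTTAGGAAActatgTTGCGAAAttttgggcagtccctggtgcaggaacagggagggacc

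These motifs were picked after the sequences had been read, and both strands were searched over the 250 bases before the RefSeq start. GAGGAA began 30 bases before the start of C1qb and, on the opposite strand, 193 bases before that of C1qc, and 23.3% of 32851 mouse promoters of this length hold it. TTNNGNAA occurred at 70, 58 and 45 bases before the start of C3, and at 81 bases before that of C1qc in the part not printed. At 45 bases it read as a match on both strands, no match overlapped one of the other motif, and 36.8% of promoters hold this motif at least once. The TATA box motif TATAAA was searched and had no match in any of the 4 promoters, while 12.4% of all promoters hold it. Such matches describe letters and are not evidence of binding.

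Loss of Bpifb1 changed none of the 9 complement genes past the test threshold. By edgeR's quasi-likelihood test with sex in the model, 0 of 9 were called at a Benjamini-Hochberg adjusted p under 0.05 over all 18024 genes, where 4 genes in all, or 0.0222%, were called. DESeq2 and limma-voom also called 0 of 9, where they called 346 and 2 of all 18024 tested genes. At an unadjusted p under 0.05 1 of the 9 stood out, Cfb, which was higher in KO, against 17.0% of all tested genes in either direction. For 0 of 9 did the CPM ranges of the genotypes lie apart, against 1.88% of all tested genes. Differences on the log2 scale ran from -0.18 for C2 to 0.24 for Cfb, with 5 above and 4 below 0, a median of 0.006 and a median absolute size of 0.08. Over all tested genes the median difference was -0.003 and the median absolute size 0.10. The 95% intervals of the 9 differences together spanned -0.47 to 0.41.

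**Figure D1:**
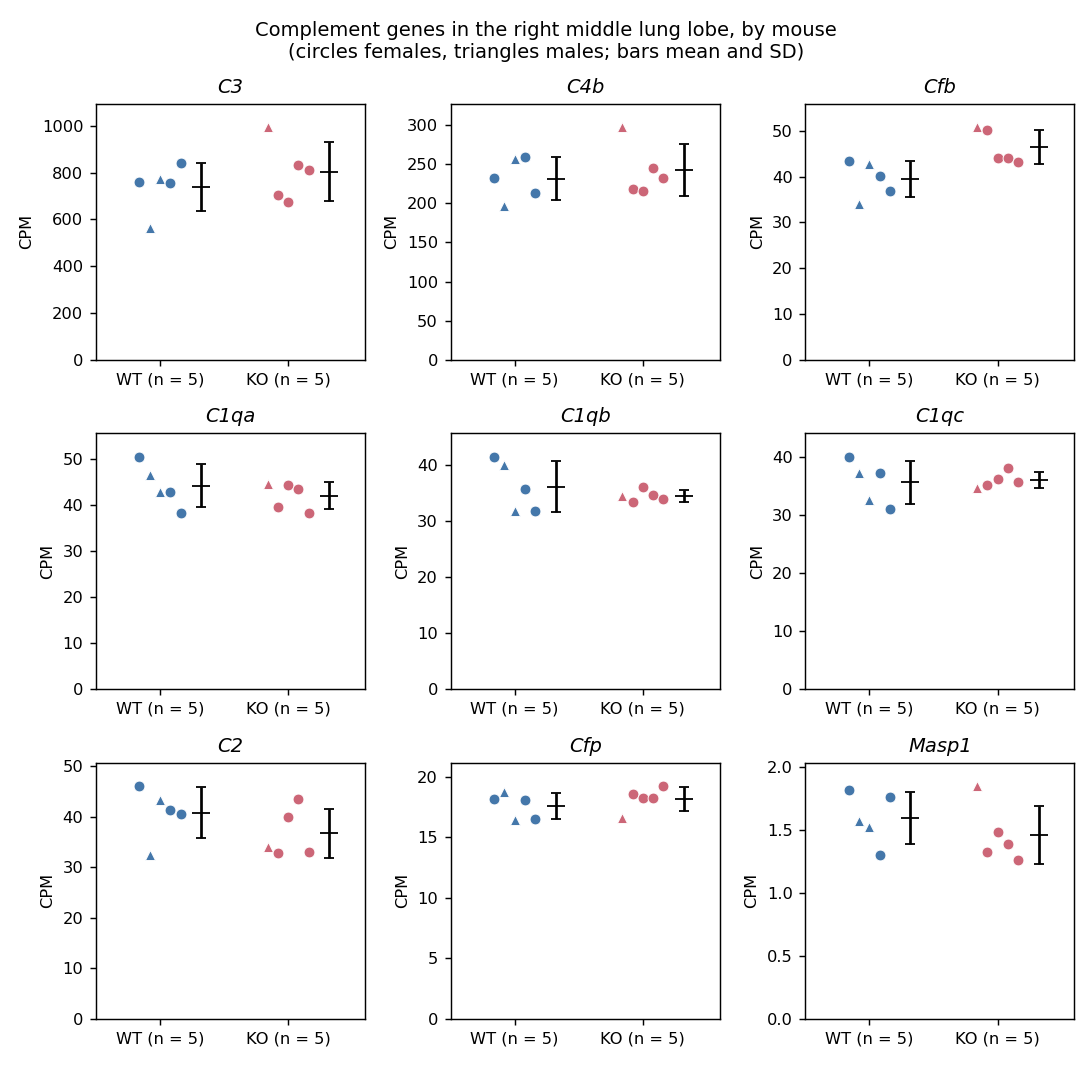
CPM of each of the 9 complement genes in every mouse, with WT in blue, KO in red, circles for females, triangles for males, and the mean and SD of the 5 mice beside the points. In every panel the KO and WT points overlap in range. The male KO mouse is the highest point for C3, C4b, Cfb and Masp1.

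C1q is built from A, B and C chains, encoded by C1qa, C1qb and C1qc, and all 3 were at similar levels in both genotypes. C1qa was 44.6, 39.5, 44.4, 43.4 and 38.3 CPM in KO 1 to KO 5 and 50.5, 46.6, 42.9, 42.9 and 38.2 CPM in WT 1 to WT 5. C1qb was 34.6, 33.4, 36.1, 34.7 and 33.9 CPM in KO and 41.5, 40.0, 31.8, 35.7 and 31.8 CPM in WT mice. C1qc was 34.7, 35.3, 36.2, 38.2 and 35.7 CPM in KO and 40.1, 37.2, 32.6, 37.2 and 31.0 CPM in WT mice. WT 1 was the highest and WT 5 the lowest mouse for each chain, so the WT range enclosed every KO value. The log2 differences, KO against WT, were -0.06 for C1qa (SE 0.07), -0.07 for C1qb (SE 0.08) and 0.01 for C1qc (SE 0.07), with edgeR adjusted p of 0.73, 0.70 and 0.98. Without WT 1 they became 0.02, 0.004 and 0.06, and without WT 5 -0.12, -0.13 and -0.06, so their signs rest on single mice.

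Across the 10 mice, log2 CPM of C1qa and C1qb correlated with Pearson's r of 0.83 and Spearman's rho of 0.87 (permutation p 0.0025 and 0.00216, adjusted over 36 pairs of the 9 genes 0.0758 and 0.0520). For C1qb and C1qc r was 0.83 and rho 0.85 (permutation p 0.00421 and 0.00289, adjusted 0.0758 and 0.0520), and for C1qa and C1qc r was 0.68 and rho 0.62 (permutation p 0.0310 and 0.0596, adjusted 0.224 and 0.582). No pair passed after adjustment. For the pairs of C1qa, the 2 mice farthest from its median, WT 1 and WT 5, were left out. There r was 0.63 with C1qb and 0.22 with C1qc. For C1qb with C1qc, r was 0.85 without the 2 mice farthest from the median of C1qb, WT 1 and WT 2. The last value is thus not comparable with the other 2. Leaving out extreme mice narrows the range, which can lower r by itself, so whether a relation rests on those mice is not settled. With the genotype means removed the 3 values of r were 0.82, 0.88 and 0.74. Per kilobase of exon, with all annotated exons of a gene merged, the ratio of C1qa to C1qb was 1.28 ± 0.066 (SD, n = 10). That of C1qc to C1qb was 0.572 ± 0.028 (SD, n = 10), while in CPM the means of C1qc and C1qb were 35.8 and 35.3. Macrophage markers, 7 genes summed, lay at 5103 to 5720 CPM in KO and 5237 to 6252 CPM in WT mice, and 4 of the 5 WT sums were above every KO sum. Such a sum is weighted to the most abundant genes. Gene by gene, 3 of the 7 log2 differences were above and 4 below 0, with a median of -0.01. Interstitial macrophage markers, 8 genes, summed to 917 to 1095 CPM in KO and 931 to 1111 CPM in WT mice, with 4 log2 differences above and 4 below 0. Alveolar macrophage markers, also 8 genes, summed to 427 to 596 CPM in KO and 512 to 643 CPM in WT mice, with 6 of 8 log2 differences below 0 and a median of -0.18. Of the genes of these 3 lists 0 were called between genotypes, and their part in the C1q values was not tested.

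C4b encodes complement C4, which C1s and MASP proteases split, and C2 encodes the protease partner of C4b in the classical C3 convertase. C4b was 298, 219, 216, 246 and 233 CPM in KO 1 to KO 5 and 233, 196, 257, 260 and 213 CPM in WT 1 to WT 5. KO 1 was the highest mouse and WT 2 the lowest, both of them males. The log2 difference of C4b was 0.08 (SE 0.10, 95% interval -0.13 to 0.29, edgeR adjusted p 0.71). It turned to -0.04 without KO 1, and to -0.04 in females alone. KO 1 is the only KO male, so both fits take the genotype difference from the females and are not separate checks. Its paralog C4a, 65209 bases away on the same chromosome, shares 34.6% of the 50-base windows of C4b, so reads from those stretches could have been given to either gene. With the counts of C4a added to C4b, a setting added after seeing the data, the difference was again 0.08. C4b was 85.4 ± 23.6 times as high as C4a per kilobase (SD, n = 10).

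C2 was 34.0, 32.8, 39.9, 43.5 and 33.0 CPM in KO 1 to KO 5 and 46.0, 32.5, 43.2, 41.4 and 40.5 CPM in WT 1 to WT 5. In C2, 3 of the KO mice and WT 2 lay between 32.5 and 34.0 CPM, and the other 4 WT mice lay above 40 CPM. The log2 difference was -0.18 (SE 0.10, 95% interval -0.39 to 0.03), with an unadjusted p of 0.0819 and an adjusted p of 0.354 by edgeR. It stayed below 0 in all 19 alternative settings run for it, from -0.24 to -0.14, and passed the threshold in 0 of them.

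C3, the protein on which all arms converge, had the highest level of the 9 genes. Its values were 995, 706, 674, 832 and 812 CPM in KO 1 to KO 5 and 758, 563, 771, 757 and 842 CPM in WT 1 to WT 5. KO 1 was again the highest and WT 2 the lowest mouse, 1.77 times apart, and the other 8 mice lay within the range of 674 to 842 CPM. The log2 difference was 0.13 (SE 0.12, 95% interval -0.15 to 0.40, edgeR adjusted p 0.64). Without KO 1, the only male of its genotype, it was -0.06, and in females alone, again nearly the same comparison, it was -0.06. Log2 CPM of C3 and C4b correlated over the 10 mice with r of 0.78 and rho of 0.50 (permutation p 0.00903 and 0.146, adjusted over the 36 pairs 0.108 and 0.582). Without KO 1 and WT 2, the 2 mice farthest from the median of C3, r was 0.24. Leaving out the extremes of C3 narrows its range, which can lower r by itself, so whether the relation rests on those mice is not settled. C3 lies on chromosome 17 at 57203970 to 57228136 and shares no 50-base window with another gene. Even so, 9 of its 10 estimated counts missed a whole number by over 0.01, and the reason was not tested. A set of 5 hepatocyte markers summed to 0.604 to 1.86 CPM over the 10 mice, with Fgb listed at 0 in all of them.

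Factor B, encoded by Cfb, is the protease partner of C3b in the alternative C3 convertase, and its gene was the one whose difference came nearest to the threshold. Cfb was 50.9, 50.3, 44.0, 44.1 and 43.3 CPM in KO 1 to KO 5 and 43.5, 34.0, 42.8, 40.0 and 36.9 CPM in WT 1 to WT 5. In all, 4 of the 5 KO mice lay above the highest WT mouse. KO 5, the mouse whose Xist level did not follow its sex label, lay just below it. The mean was 46.5 ± 3.73 CPM over KO and 39.4 ± 3.99 CPM over WT mice (SD, 5 mice a genotype). The log2 difference was 0.24 (SE 0.08, 95% interval 0.08 to 0.41), with an unadjusted p of 0.00696 and an adjusted p of 0.178 by edgeR, which is not past the threshold. Over 19 alternative settings it ran from 0.18 to 0.30 with adjusted p from 0.109 to 0.407. Of 7 alveolar type 2 cell markers 4 were lower in KO at an unadjusted p under 0.05, where 8.04% of all tested genes were, and 0 were called. Their sum lay at 23411 to 26627 CPM in KO and 24300 to 28859 CPM in WT mice, and their part in the Cfb values was not tested.

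Properdin, encoded by Cfp on the X chromosome, stabilises the alternative convertase, and it was the steadiest of the 9 genes. Cfp was 16.6, 18.6, 18.3, 18.2 and 19.2 CPM in KO 1 to KO 5 and 18.2, 18.7, 16.4, 18.1 and 16.5 CPM in WT 1 to WT 5. Its coefficient of variation over 10 mice was 5.60%, against 14.9% for C3, 12.4% for C4b and 12.1% for Cfb. The median of the 9 genes was 12.1%, and that of 11021 tested genes with a mean of at least 10 CPM was 8.02% (quartiles 5.97% and 10.7%). The log2 difference of Cfp was 0.03 (SE 0.06, edgeR adjusted p 0.83). Masp1, a lectin arm protease, was near the lower end of what could be tested, with 30 to 51 counts per mouse. It was 1.85, 1.33, 1.49, 1.39 and 1.26 CPM in KO 1 to KO 5 and 1.82, 1.57, 1.53, 1.30 and 1.76 CPM in WT 1 to WT 5, with a log2 difference of -0.10 (SE 0.17, 95% interval -0.47 to 0.27, edgeR adjusted p 0.80).

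Cfb and C2 are paralogs and neighbours on the minus strand of chromosome 17, Cfb at 34856374 to 34862518 and C2 at 34862604 to 34898265, with 85 bases between them, yet their differences had opposite signs. Per kilobase of exon, the ratio of C2 to Cfb within a mouse was 0.488, 0.476, 0.662, 0.720 and 0.557 in KO 1 to KO 5 and 0.772, 0.697, 0.737, 0.754 and 0.801 in WT 1 to WT 5. Of the 5 KO mice 4 lay below the lowest WT mouse, and only KO 4 lay within the WT range. The mean log2 difference of the ratio was -0.39 (two-sided exact permutation p 0.01587 over 252 splits, smallest possible 0.007937). This was the smallest p of 9 ratios that were computed after the values had been seen, and adjusted over those 9 it was 0.1428, which is not past the threshold. Cfb and C2 had the highest and lowest differences of the 9 complement genes, so their ratio in part restates those. The adjustment does not cover every pair of these genes, and the permutation takes no account of sex. Leaving out each mouse in turn gave -0.47 to -0.33. The gene model Gm20547 spans Cfb and part of C2 and shares 73.0% of the 50-base windows of Cfb and 38.7% of those of C2, but it held 0 counts in 8 mice, 23 in KO 3 and 88 in WT 4. Adding these to Cfb gave -0.37 (exact permutation p 0.02381) and adding them to C2 gave -0.41 (exact permutation p 0.01587), and these settings, like leaving out each mouse, were added after seeing the data.

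**Figure D2:**
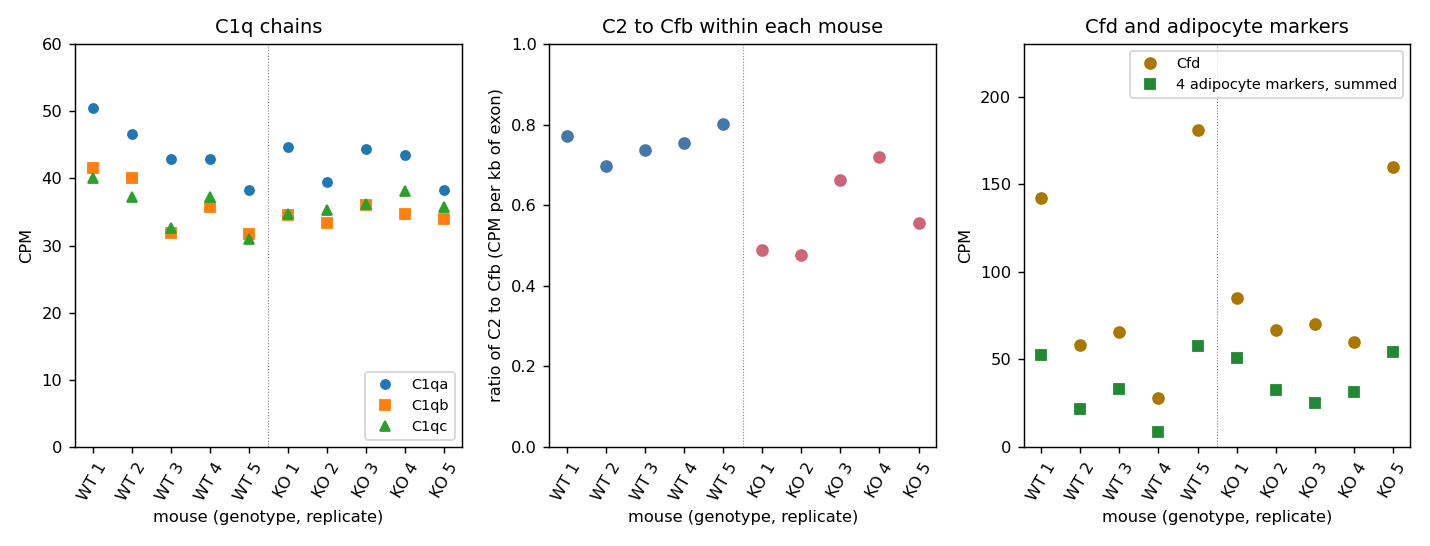
By mouse, WT left and KO right of the dotted line: CPM of the 3 C1q chains, the ratio of C2 to Cfb in CPM per kilobase of exon, and CPM of Cfd beside the sum of 4 adipocyte markers. WT 1 is highest and WT 5 lowest for all C1q chains, the C2 to Cfb ratio is 0.476 to 0.720 in KO and 0.697 to 0.801 in WT mice, and Cfd runs from 27.9 to 181 CPM.

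Levels of different genes were compared as CPM per kilobase of exon. All annotated exons of a gene were merged for its length, so this length can exceed that of the transcripts present. C3 was highest at 150 ± 22.3 (SD, n = 10, here and for the other genes), followed by C4b at 41.6 ± 5.14, C1qa at 41.5 ± 3.68, C1qb at 32.5 ± 2.96 and C1qc at 18.5 ± 1.37. Below them came Cfb at 15.2 ± 1.84, Cfp at 10.3 ± 0.577, C2 at 9.99 ± 1.32 and Masp1 at 0.156 ± 0.022. The ranges over mice overlapped between 4 pairs of neighbours in this order. C4b was above C1qa in 7 of 10 mice and Cfp above C2 in 5, so neither order is settled by these mice, while C1qa was above C1qb in 10 and C1qc above Cfb in 9. The step from C2 to Masp1 was the largest, 64.2-fold per kilobase. It depends on the merged exon lengths of 3872 bases for C2 and 9833 for Masp1, and in CPM the means were 38.7 and 1.53.

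**Figure D3:**
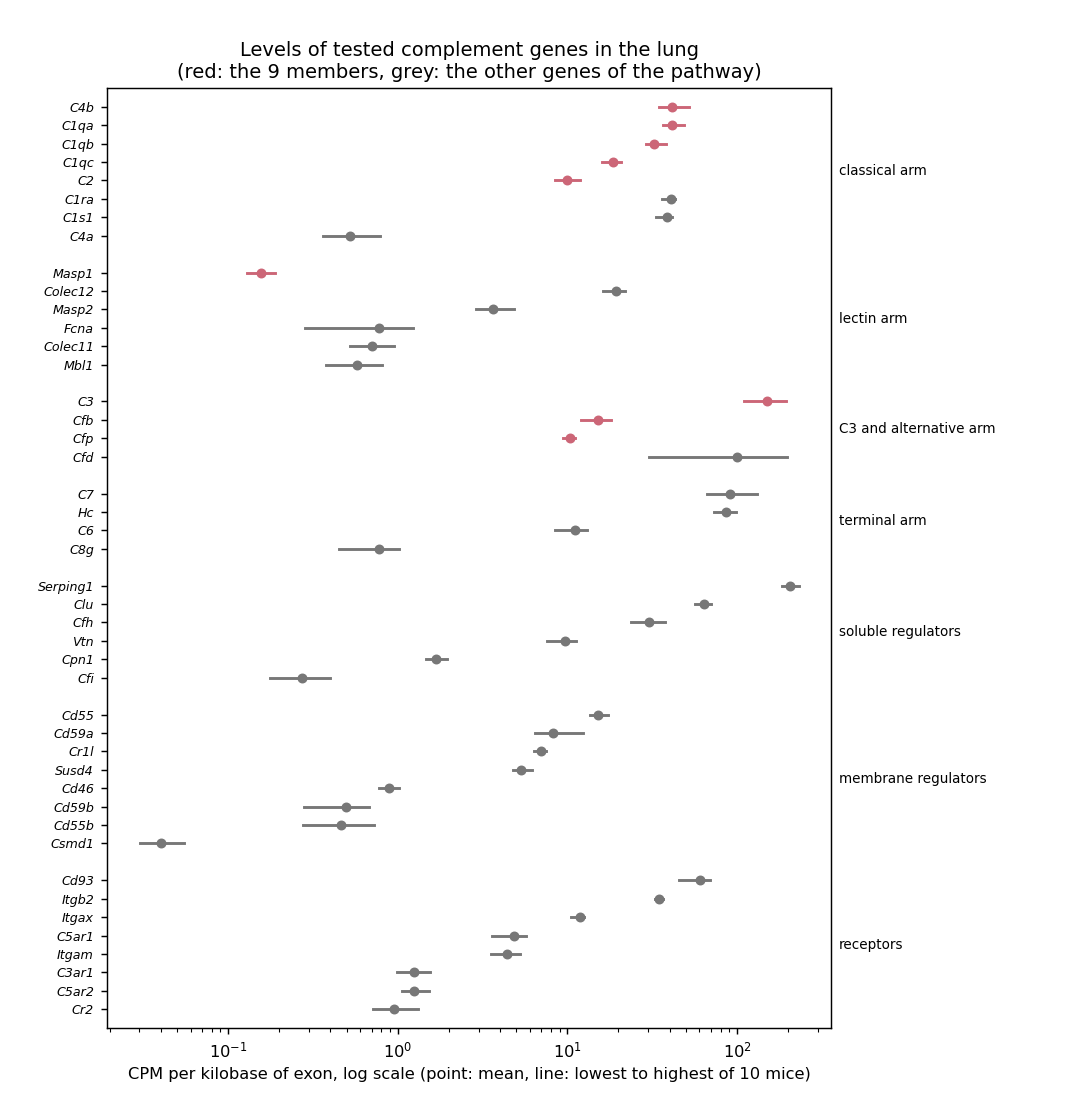
CPM per kilobase of exon, on a log axis, of every tested complement gene, grouped by role, with points for the mean and lines from the lowest to the highest of 10 mice. The 9 genes described here are red and the other genes of the pathway grey. C3 at 150 is exceeded only by Serping1 at 205.

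The rest of the pathway was read from a list of 48 other complement genes grouped by role, of which 35 could be tested. Between genotypes 0 of 35 were called by edgeR, DESeq2 or limma-voom, which called 4, 346 and 2 of all 18024 tested genes. By edgeR 2 of the 35 were at an unadjusted p under 0.05, both higher in KO, where 8.92% of all tested genes were. Of the log2 differences of these 35 genes 24 were above and 11 below 0, with a median of 0.04. Over all tested genes 49.3% were above 0, with a median of -0.003, and the split of the 35 was not tested. Itgam, the alpha chain of complement receptor 3, was 22.7, 26.5, 23.1, 21.6 and 25.0 CPM in KO 1 to KO 5 and 21.1, 17.9, 21.4, 20.3 and 21.1 CPM in WT 1 to WT 5. It was the only tested complement gene whose genotypes did not overlap, by a gap between 21.4 and 21.6 CPM, where 0.96% of all tested genes lay apart and higher in KO. Its log2 difference was 0.21 (SE 0.07, unadjusted p 0.0108, adjusted p 0.194 by edgeR). Among markers of the myeloid cells that carry Itgam, 7 neutrophil markers summed to 87.8 to 123 CPM in KO and 79.0 to 121 CPM in WT mice. The 6 monocyte markers summed to 1107 to 1268 and 974 to 1412 CPM. Of these 6 genes 1 was higher in KO at an unadjusted p under 0.05 by edgeR, where 8.92% of all tested genes were. Macrophage markers are given above with the C1q chains, and the part of all these cells in the Itgam values was not tested. Cd59b, a membrane inhibitor of the lytic pore, differed by 0.60 (SE 0.25, unadjusted p 0.0313, adjusted p 0.249 by edgeR) at a low level, 0.757 ± 0.125 CPM over KO and 0.538 ± 0.174 CPM over WT mice (SD, 5 mice a genotype).

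**Figure D4:**
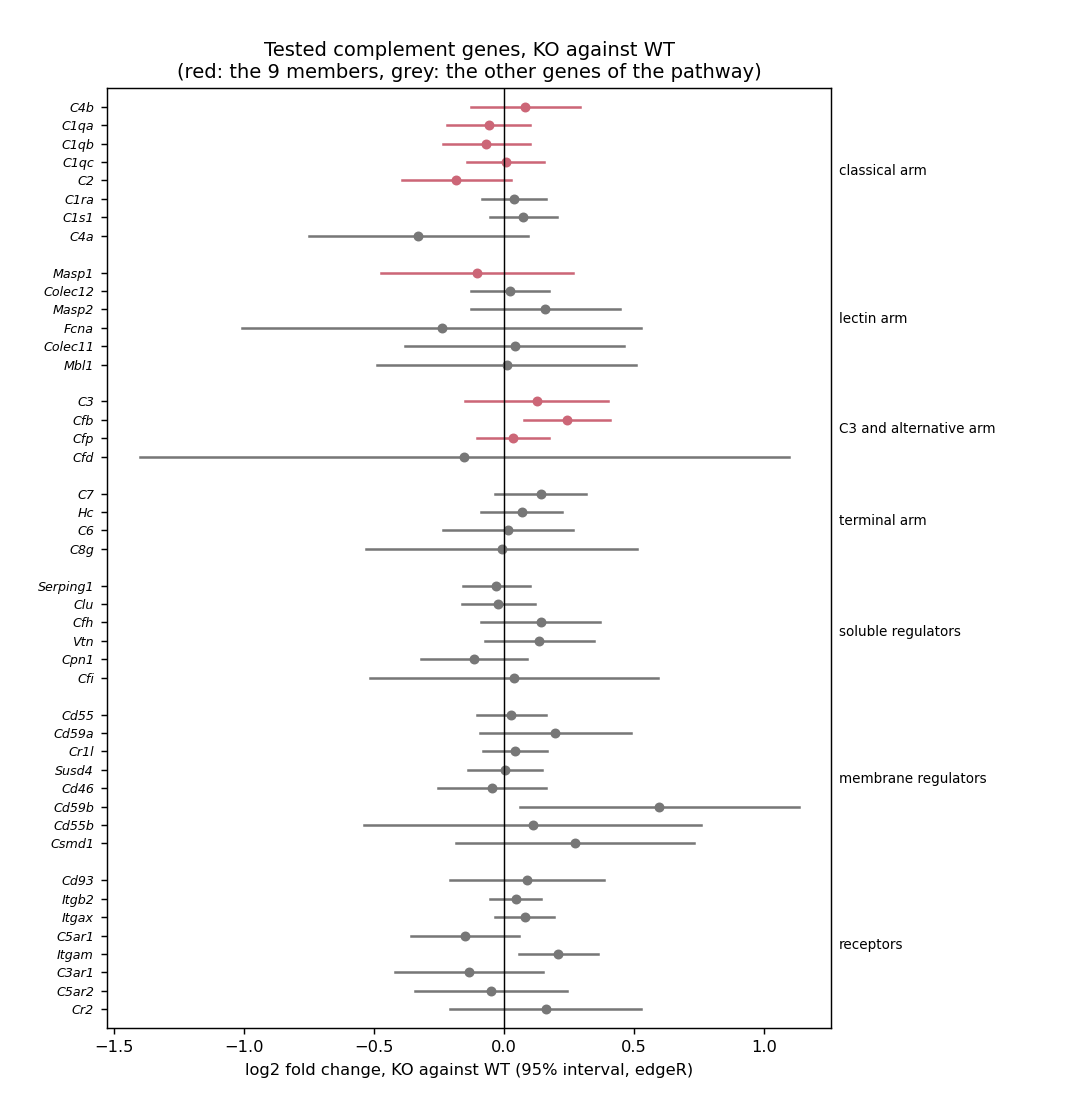
Log2 fold change, KO against WT, of the tested complement genes grouped by role, with 95% intervals from the edgeR fit. The 9 genes described here are red and the others grey. Of all intervals, those of Cfb, Itgam and Cd59b lie wholly to the right of 0, and none lies wholly to the left.

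Within each role the highest level per kilobase among these other genes was that of C1ra in the classical arm at 40.5, Colec12 in the lectin arm list at 19.5, Cfd in the alternative arm at 99.4, C7 in the terminal arm at 91.3, Serping1 among soluble regulators at 205, Cd55 among membrane regulators at 15.1 and Cd93 among receptors at 60.3. Colec12 is neither a mannose-binding lectin nor a ficolin. Of those, Mbl1 and Fcna had means of only 0.903 and 1.06 CPM over the 10 mice. C7 was above Hc, the gene of complement C5, in 6 of 10 mice with overlapping ranges, and in the 7 females the means were 80.5 for C7 and 86.6 for Hc, so their order is not settled. C1ra was above C1s1 in 9 of 10 mice with overlapping ranges. In the roles other than the terminal, classical and alternative arms, the highest gene per kilobase did not overlap the next. In the alternative arm Cfd is the only such gene. Before division by exon length, Cd55 and the membrane regulator Cr1l did overlap, at 65.5 to 83.6 and 66.0 to 77.7 CPM over the 10 mice. C1ra encodes C1r, a protease that joins C1q, and its level was close to those of C1qa and C4b. Serping1 encodes the C1 inhibitor, which shuts off C1r, C1s and the MASP proteases. Mbl2, C8b and C9 were listed at 0 counts in all 10 mice, which allows each up to 3 counts per mouse, or 0.106 to 0.14 CPM, for counting error only.

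Factor D, encoded by Cfd, splits factor B and is known as an adipocyte product. Cfd was 85.1, 66.9, 70.0, 60.1 and 160 CPM in KO 1 to KO 5 and 142, 58.1, 65.7, 27.9 and 181 CPM in WT 1 to WT 5. It varied 6.49-fold between mice, with a coefficient of variation of 55.3%, and its log2 difference between genotypes was -0.15 (SE 0.53, edgeR adjusted p 0.92), or 0.20 without WT 5. Adipocyte markers varied alongside: 4 genes summed to 50.5, 32.4, 24.9, 31.5 and 54.4 CPM in KO and 52.6, 21.6, 33.1, 8.60 and 57.7 CPM in WT mice. WT 5, KO 5 and WT 1 were the 3 highest mice and WT 4 the lowest for both Cfd and this sum, and the part of adipose tissue in the Cfd values was not tested.

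Sex changed none of the 9 genes past the threshold: in the sex term of the same edgeR fit 0 of 9 were called, where 105 of all tested genes, or 0.583%, were. DESeq2 and limma-voom called 0 of 9 as well, where they called 436 and 93 of all 18024 tested genes. At an unadjusted p under 0.05 there were 0 of 9, against 15.1% of all tested genes, and 0 of 9 had ranges that lay apart, against 4.81%. Differences, males against females, ran from -0.15 for C2 to 0.14 for Masp1 on the log2 scale, with adjusted p from 0.53 to 0.98. For C3 the 3 males held both extremes, 995 CPM in KO 1 and 563 CPM in WT 2, with a mean of 776 ± 216 CPM against 769 ± 63.8 CPM in 7 females (SD). Without KO 5, 0 of 9 were called for sex, where 93 of all 18094 tested genes were.

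Among the 35 other complement genes, C7, a component of the lytic pore, was the one called for sex (1 of 35, where 0.449% of all tested genes were called as higher in males). C7 was 318 CPM in KO 1, 268 in WT 2 and 349 in WT 3, and 178 to 235 CPM in the 7 females, so the sexes did not overlap, where 2.26% of all tested genes lay apart and higher in males. It was higher in males by 0.57 on the log2 scale (SE 0.09, edgeR adjusted p 0.0103), by 0.58 without KO 5 (adjusted p 0.019) and by 0.62 without KO 1, where the call was lost (adjusted p 0.110, with 0 genes called in all). Of 6 fibroblast and 4 mesothelial markers 0 were called for sex, where 0.583% of all tested genes were, and their part in the C7 values was not tested.

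As a description, the genes whose log2 CPM followed each pattern most closely over the 10 mice were listed among 12876 tested genes (12874 for the C1q chains) with a mean of at least 5 CPM. For C3 they were Slc39a8, Scrn1 and Adgrd1 (Pearson's r 0.94, 0.91 and 0.90), for C4b Supt6, Clasp2 and Snx9 (0.92, 0.91 and 0.91), and for Cfb Robo2, Abi3bp and Lclat1 (0.91, 0.91 and 0.90). For the mean of the C1q chains they were Sertad1, Eif1b and Nagk (0.93, 0.92 and 0.92). With 10 points and so many genes, values of this size are those of the top of a long list, and the points share library depth and composition.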

How the data were processed

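Estimated counts per gene, not scaled between samples, are the values the authors deposited, per the file headers. Per the labels' protocols the libraries were made with a KAPA stranded mRNA kit and read as single reads of 50 bases. The submitters' processing notes name STAR 2.6.0, Salmon 0.9.1, FastQC, MultiQC, mm10 and GRCm38, with no role or order. Fractional values were common (30.1% of entries above 0 missed a whole number by over 0.01), so reads were apparently divided among matching transcripts, and genes with near-identical stretches are less certain. Symbols, exon lengths and positions came from GENCODE M21 (GRCm38) by identifier: 47281 matched, and 52, with 0.0067% of counts, did not.

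Estimated counts were rounded. Genes were kept by filterByExpr (minimum count 10, minimum total 15, genotype as group) and tested with edgeR 4.0.16 in R 4.3.3 (TMM scaling, robust quasi-likelihood fit, model of genotype plus sex, all 10 mice, Benjamini-Hochberg adjustment, two-sided). CPM uses TMM-scaled totals. Intervals of fold changes are 95% intervals from the fit, and correlations used log2 CPM with a prior count of 2 and 100000 resamples. The scripts were tested on simulated counts. Alternatives used DESeq2 1.42.0 and limma 3.58.1 (limma-voom), among others. The 9 genes, the gene lists and the settings were chosen with earlier results of these data known. The rule for naming other complement genes took those called, those at an unadjusted p under 0.05, those whose genotypes did not overlap and the highest per kilobase of each role. As like genes it took the 3 with the highest r. A total of 3 counts equals 0.106 to 0.14 CPM, and floors cover counting error only, since PCR copies are counted as separate reads here.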

Additional observations from a re-analysis of the deposited data

Results flagged for a closer look

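In none of the 9 complement genes did a mouse stand apart from the other 4 of its genotype by the gap that Dixon's test takes as unusual at the 95% level. Over the tested complement genes and Bpifb1, 90 sets of 5 mice were examined and a mouse stood apart in 5 of them, where chance gives 4.5. Cfd in KO 5 was 160 CPM, above 60.1 to 85.1 CPM in the others. C7 in KO 1, the male of that group, was 318 CPM, above 212 to 235 CPM. Hc was 456 CPM in WT 1, below 535 to 553 CPM. Cd59a in KO 2 was 22.3 CPM, above 13.3 to 15.6 CPM. Susd4 in KO 1 was 19.6 CPM, below 20.9 to 21.4 CPM.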

How the results depend on the processing

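No complement gene was called between genotypes under any alternative: the counts over the 9 genes and over the 35 other genes were 0 in every setting. Over 21 settings 165 fold changes of the 9 genes were computed between genotypes, and 0 passed, with 11 of opposite sign in 6 genes. Leaving out KO 1 and taking females alone count there as separate settings, but both take the genotype difference from the females. For sex, 153 over 17 settings gave 0 that passed and 10 of opposite sign in 5 genes. Cfb, C2 and Masp1 kept their direction between genotypes in all of theirs. Calls over all genes moved more. Between genotypes 4 became 50 with no filter on low counts, 346 by DESeq2, 2 by limma-voom, 57 at an adjusted p under 0.1 and 2 to 18 with 1 mouse left out. For sex 105 became 197, 436 by DESeq2, 41 without genotype in the model, 351 at 0.1 and 0 to 195 with 1 mouse left out, 0 being without KO 1.

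In females alone the genotype difference reversed for C3 (-0.056), C4b (-0.044), Cd55 (-0.015), C1ra (-0.020) and Colec12 (-0.042), on the log2 scale. It reversed for C1qc with no filter (-0.0027) and for Cfd by limma-voom (0.032), and with genotype left out the sex difference reversed for Cfb (-0.018) and C1qb (0.0069). Leaving out 1 mouse gave, between genotypes, -0.055 to 0.19 for C3, -0.043 to 0.16 for C4b, -0.12 to 0.020 for C1qa, -0.13 to 0.0038 for C1qb, -0.062 to 0.059 for C1qc, -0.0044 to 0.079 for Cfp, -0.42 to 0.20 for Cfd, -0.015 to 0.091 for Cd55, -0.020 to 0.072 for C1ra, -0.042 to 0.067 for Colec12 and -0.024 to 0.22 for Cd93. For sex it gave -0.24 to 0.20 for C3, -0.055 to 0.26 for C4b, -0.061 to 0.13 for Cfb, -0.086 to 0.071 for C1qb and -0.073 to 0.21 for Masp1. The cause was not tested. Bpifb1 stayed between -6.97 and -6.35 with 1 mouse left out, and passed the threshold in 9 of 18 alternatives: it missed by limma-voom, in females alone, without any 1 of the 5 KO mice and without WT 1 or WT 5, with adjusted p of 0.052 to 0.152 there. Depth limits Masp1 most, at 30 to 51 counts. No paired analysis was possible because the labels carry no replicate number that links a KO to a WT mouse.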
